A study of Macaca fascicularis with 64 samples.

Results

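The genes described here are 10 secreted peptides that islet cells carry beside their main hormones, namely IAPP, NPY, PYY, CARTPT, CALCB, MLN, NPPA, GUCA2A, GUCA2B and RETNLB. They were chosen by name, with earlier results of these data in view, and are 10 of the 21041 genes counted. Their levels were read in single islet cells of 16 healthy cynomolgus monkeys (Macaca fascicularis), of which 8 were young and 8 old, each age being represented by 4 females and 4 males. They carried no transgene or treatment that the labels name. Cells picked one by one from pancreatic islets were tagged with barcodes and unique molecular identifiers (UMIs, tags that let copies of the same molecule be counted once), in 64 libraries, 4 per monkey. Of 6141 picked cells, 5908 passed the minimum of 800 genes and 10000 UMIs, and the weakest of them held 801 genes and 10016 UMIs. Each cell was typed by the highest of the hormones GCG, INS, SST and PPY, which gave 4503 α-cells, 1219 β-cells, 112 δ-cells and 74 PP-cells.

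Islet cells secrete short peptides cut from longer precursors, and next to glucagon, insulin, somatostatin and pancreatic polypeptide they release smaller amounts of others. Amylin, the product of IAPP, is stored with insulin and slows gastric emptying. NPY and PYY are relatives of pancreatic polypeptide that act on Y receptors, CARTPT encodes the neuropeptide CART, and CALCB encodes the β form of the calcitonin gene-related peptide. Motilin (MLN) drives contractions of the fasting gut, NPPA encodes the atrial natriuretic peptide, guanylin (GUCA2A) and uroguanylin (GUCA2B) activate the guanylyl cyclase receptor GUCY2C in the gut, and RETNLB encodes a resistin-like protein best known from goblet cells of the intestine.

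Between 20719761 and 34053080 UMIs of macaque genes were counted per monkey, and the median per cell was between 39036.5 (young male 3) and 87879.5. A single library stood apart, library 4 of old female 2. Its 82 cells had a median of 1708.5 genes and 32570 UMIs, against 2170 to 5335 genes and 37037.5 to 105974 UMIs in the other 63 libraries, and it was the 1 library of 64 whose α-cells did not resemble the other libraries of their own monkey most. The tests of age were also run without it. The defining hormones were also counted in other types. Mean levels over monkeys, in UMIs per 1000000 UMIs of a cell (CPM), were 92552 for GCG in α-cells and 26594 in β-cells, and 78564 for INS in β-cells and 8373 in α-cells. The further markers of each type followed the type, with HHEX at 374 CPM in δ-cells and 1.86 in α-cells and SLC2A2 at 661 CPM in β-cells and 10 in α-cells. The summed markers of acinar, ductal, stellate, endothelial or immune cells passed 10000 CPM in 7 cells, and none of the cells called strongly positive for a member below was among these 7. Of the 6 gut epithelium markers, 4 were in the files. FABP2 was at 0.0429 CPM and CDX2 at 0.601 CPM in α-cells, while VIL1 was at 132 CPM and TFF3 at 11.5 CPM.

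The members fell into 3 patterns by cell type. IAPP was highest in β-cells, CALCB, CARTPT and MLN were highest in δ-cells, and the remaining 6 were at their highest in α-cells or PP-cells. In α-cells against β-cells of the same monkey, PYY, GUCA2A and GUCA2B were higher in α-cells in 16 of 16 monkeys, NPPA in 15, RETNLB in 12 and NPY in 10 (4 monkeys had equal values for NPY). IAPP was higher in β-cells in 16 of 16 and CALCB in 13. Since the types were cut from the same cells, these differences are given as a description, without a test. Some neighbours in the order of the types did not differ beyond their spread. PYY was at 90.4 ± 91.7 CPM (SD, n = 6 monkeys) in PP-cells and at 78.5 ± 51.2 CPM (n = 16) in α-cells, and it was higher in PP-cells in 2 of the 6 monkeys with both. IAPP in δ-cells, PP-cells and α-cells, at 97.5 ± 91 CPM (n = 11), 68.5 ± 38.7 CPM (n = 6) and 54.9 ± 41.9 CPM (n = 16), overlapped, as did GUCA2A in α-cells and PP-cells, at 17.7 ± 19.5 CPM (n = 16) and 15.1 ± 15.4 CPM (n = 6). RETNLB was higher in α-cells than in PP-cells in 6 of 6 monkeys.

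**Figure D1:**
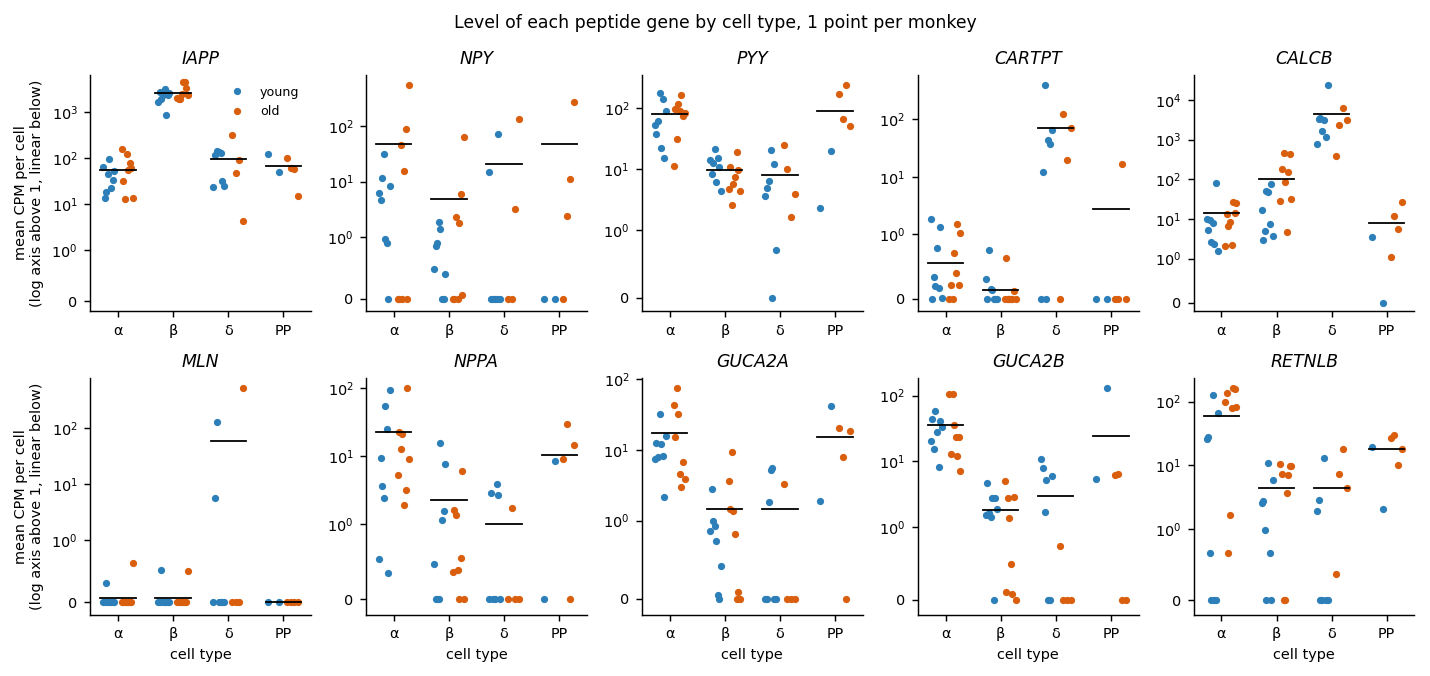
Mean CPM per cell of each of the 10 genes (vertical axis, logarithmic above 1) in α-, β-, δ- and PP-cells, with 1 point for each monkey that had at least 5 cells of the type (blue young, orange old) and a bar at the mean over monkeys. IAPP sits near 2603 CPM in β-cells and CALCB near 4497 CPM in δ-cells, while the 6 genes led by α- or PP-cells spread over wide ranges from monkey to monkey.

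A cell was called strongly positive for a member at 100 CPM or more with at least 5 UMIs. In β-cells IAPP was carried by nearly every cell, as 1187 of 1219 (97.4%) were strongly positive, in 16 of 16 monkeys. The other members were mosaic. In α-cells, strongly positive cells numbered 607 for RETNLB (13.5%), 494 for GUCA2B (11%), 379 for PYY (8.42%), 317 for NPPA (7.04%), 302 for NPY (6.71%) and 291 for GUCA2A (6.46%), and these cells held between 80.7% (GUCA2A) and 96.1% (NPY) of the UMIs of their gene in α-cells. Among δ-cells 62 (55.4%) were strongly positive for CALCB, 13 (11.6%) for CARTPT and 4 (3.57%) for MLN.

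IAPP was the most uniform member. Its level in β-cells ranged from 893 CPM in young male 2 over a median of 2412 to 4689 CPM in old male 2, with a mean of 2603 ± 1002 CPM (SD, n = 16). Young monkeys had 893, 2412 and 3246 CPM as the lowest, median and highest value, and old monkeys 1994, 2414 and 4689 CPM. The medians of the age groups were close and their ranges overlapped. The log2 fold change of old against young β-cells was 0.30 (SE 0.23, adjusted p = 0.992 by edgeR's quasi-likelihood test on sums per monkey), with a 95% interval from -0.15 to 0.74. Between males and females it was 0.41 (SE 0.23, adjusted p = 1 by edgeR), and 7 of 8 males lay above the female median.

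In α-cells IAPP went with the amount of β-cell IAPP of the same monkey. That amount combines the number of β-cells and their level, which were not tested apart. An IAPP UMI was found in 68.8% of α-cells (95% exact binomial interval 67.4 to 70.2%, median depth 64894 UMIs) and in 99.8% of β-cells (99.3 to 99.9%, 74425 UMIs), and after thinning every cell to 10000 UMIs in 27.3% and 98.6%. The level in α-cells was between 12.9 CPM in old female 3 and 158 CPM in old female 1, with a mean of 54.9 CPM, which became 17.3 CPM when carry-over, described below, was subtracted. Over the 16 monkeys it went with the IAPP UMIs of β-cells per retained cell (Pearson r = 0.81, permutation p = 0.00028; Spearman rho = 0.85, permutation p = 0.00012, 2-sided, 1 relation tested), and r was 0.77 without old female 4 and old female 1, the farthest from the median. Within monkeys, the library with the most β-cell IAPP also had the highest α-cell IAPP in 9 of 16. The 447 strongly positive α-cells had a median of 15421 CPM of INS against 4830 CPM in the other α-cells, and the median was higher in them in 16 of 16 monkeys. Of these 447, 287 had GCG at 4 times the second hormone or more, while among all 4503 α-cells only 299 fell short of that margin. Whether cells mixed from both types are among them was not tested. IAPP amounted to 4.39 ± 1.78% of the INS UMIs in β-cells and to 0.7 ± 0.237% in α-cells (SD, n = 16 monkeys each).

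Guanylin and uroguanylin share the receptor GUCY2C. Their genes are relatives, and since reads with a unique position were counted, a read that matched both would not have been. GUCA2A in α-cells ranged from 2.15 CPM in young male 3 over a median of 10.2 to 75.1 CPM in old female 3. GUCA2B ranged from 7.13 CPM in old male 4 over a median of 25.7 to 105 CPM in old female 3, and old female 1 was close behind with 104 CPM. The highest values of both genes were thus those of old females 3 and 1, while old female 2, with 13 CPM of GUCA2B, was below the median. Of 291 α-cells strongly positive for GUCA2A, 79 (27.1%) were also strongly positive for GUCA2B, against 9.85% of the other α-cells, and the share was higher in 12 of 14 monkeys with at least 5 strongly positive cells of each gene.

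GUCA2A was at 28.3 CPM in female and 7.09 CPM in male α-cells, averaged over 8 monkeys each. The 8 females held 7.4, 7.91, 12.6, 15.2, 31.9, 32.8, 43.5 and 75.1 CPM, and the 8 males 2.15, 3, 3.83, 4.6, 6.81, 8.3, 12.2 and 15.8 CPM. All 8 males lay below the female median, but the groups overlapped. The log2 fold change of males against females was -1.92 (SE 0.49, unadjusted p = 0.00101, adjusted p = 0.498 by edgeR), so the difference did not pass the threshold over all genes. DESeq2 put it at -1.93 with an adjusted p of 0.043, and over all alternatives the adjusted p ranged from 0.043 to 0.793. For GUCA2B the value was -1.21 (SE 0.48, adjusted p = 0.805 by edgeR).

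RETNLB divided the monkeys. In α-cells it was at 0 to 1.65 CPM in young females 3 and 4, young males 2 and 3 and old females 3 and 4, and at 25.9 to 161 CPM in the other 10 monkeys. In young female 4, young male 2 and young male 3 no UMI was found in 277, 232 and 280 α-cells, which allows shares of up to 1.08%, 1.29% and 1.07% of α-cells with a UMI (3 counts, counting error only). In old male 3, by contrast, 212 of 299 α-cells (70.9%) had a UMI. The split held from library to library. The 24 libraries of the 6 low monkeys had α-cell means of at most 4.95 CPM, and the 40 libraries of the others of at least 10.6 CPM. Differences between monkeys made up 94.6% of the sum of squares among the 64 library means on a log2 scale. Library 4 of old female 2 had 23.9 CPM, against 143, 187 and 192 CPM in the other libraries of that monkey. Young monkeys had 0, 13.3 and 126 CPM as lowest, median and highest value, and old monkeys 0.662, 90.4 and 161 CPM. Both age groups held low and high monkeys. Between the ages it differed by a log2 fold change of 1.81 (SE 1.14, adjusted p = 0.806 by edgeR).

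NPPA was similarly a matter of the monkey. Its α-cell level was highest in old male 3 with 98.8 CPM, young male 4 with 93.4 and young male 1 with 54.5 CPM, lay between 0.344 and 24.9 CPM in the others, and the 4 libraries of old male 3 gave 76.6, 90.6, 133 and 86.7 CPM. Differences between monkeys made up 90.4% of the sum of squares among libraries. Young and old monkeys had 23.6 ± 33.7 and 21.8 ± 32.1 CPM (SD, n = 8 each), which did not differ beyond that spread (log2 fold change 0.59, SE 0.94, adjusted p = 0.928 by edgeR). Males had 35.7 CPM and females 9.67 CPM, with a log2 fold change of 2.05 (SE 0.96, unadjusted p = 0.0464, adjusted p = 0.853 by edgeR), and without old male 3 it was 1.28.

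NPY was carried mainly by a single monkey. Old male 4 had 540.1 CPM in its α-cells, with 528, 481, 539.9 and 616 CPM in its 4 libraries, and 223 of its 339 α-cells (65.8%) were strongly positive. That monkey held 223 of the 302 strongly positive α-cells and its α-cells 74.7% of all NPY UMIs of the series. The next monkeys were old male 2 with 86.8 CPM, old female 3 with 46.1 and young female 4 with 31.7 CPM, and 5 of the 16 had 0 CPM, young male 3, old females 1, 2 and 4 and old male 3. In old male 4 NPY was also found in the other types, at 62.7 CPM in β-cells, 134 in δ-cells and 271 in PP-cells, and 5 of its 6 PP-cells were strongly positive. Of its 10 δ-cells 1 was strongly positive, at 1054 CPM, and its highest PP-cell held 868 CPM. With a mean of 86 ± 186 CPM in old and 8.02 ± 10.4 CPM in young monkeys (SD, n = 8 each), but medians of 7.66 and 5.45 CPM, the log2 fold change was 3.02 (SE 1.75, adjusted p = 0.779 by edgeR) and 1.84 without old male 4.

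For PYY a smaller part of the differences among libraries lay between monkeys than for RETNLB, NPPA and NPY. Every monkey had strongly positive α-cells, 379 in all and at most 45 in 1 monkey (young female 4), with a median of 289 CPM and a highest value of 10905 CPM. The monkey means ran from 11.1 CPM in old female 1 over a median of 77.8 to 177 CPM in young female 4. Differences between monkeys made up 47.8% of the sum of squares among libraries, about as for CALCB (51.3%) and far from NPY (90.6%). Young monkeys had 15.2, 56 and 177 CPM as lowest, median and highest value and old monkeys 11.1, 86.5 and 160.1 CPM, with a log2 fold change of 0.24 (SE 0.53, adjusted p = 0.947 by edgeR). PYY is a relative of PPY. The strongly positive α-cells had a median of 444 CPM of PPY against 228 CPM in the others, and the median was higher in them in 14 of 16 monkeys.

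**Figure D2:**
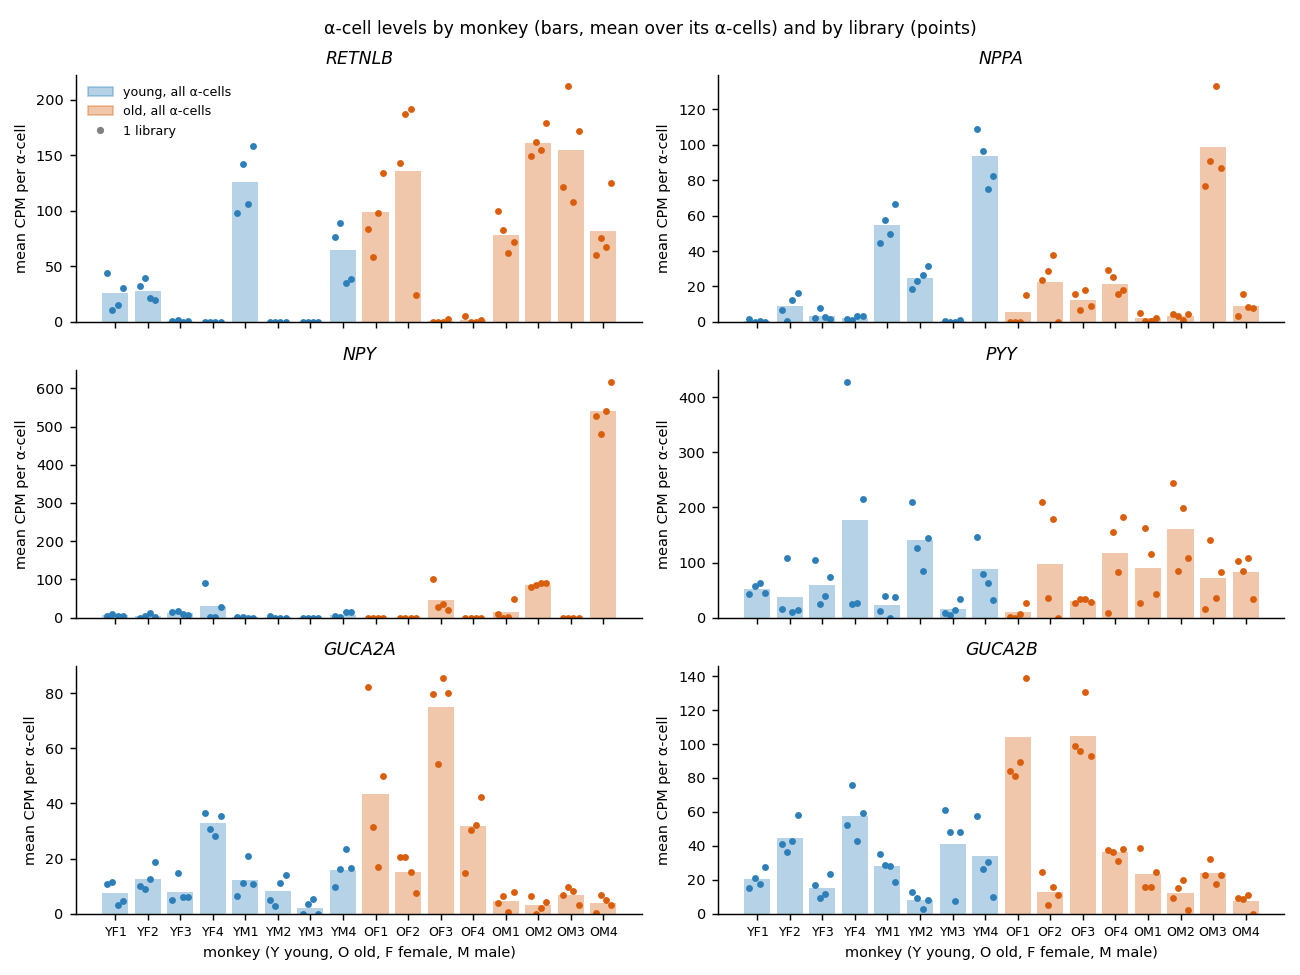
Mean CPM per α-cell of RETNLB, NPPA, NPY, PYY, GUCA2A and GUCA2B (vertical axes, linear from 0) in each of the 16 monkeys, with bars for the mean over the α-cells of the monkey (blue young, orange old) and points for its 4 libraries. RETNLB is near 0 in all libraries of 6 monkeys, NPY stands at 540.1 CPM in old male 4, and the points of PYY scatter within most monkeys.

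δ-cells carried CALCB, CARTPT and MLN. CALCB in δ-cells was between 397 CPM in old female 1 and 23489 CPM in young male 3, with a median of 3109 and a mean of 4497 ± 6512 CPM (SD, n = 11 monkeys). It was higher in δ-cells than in β-cells in 11 of 11 monkeys. Young male 3 stood above the next monkey, old male 2 with 6362 CPM, and the highest δ-cell held 131220 CPM of CALCB. Without young male 3 the mean was 2598 CPM, and without high cells, defined below, 2523 CPM. Strongly positive δ-cells were found in 15 monkeys, 40 of 70 δ-cells of young and 22 of 42 of old monkeys, and the gene's nearest relative in the files, CALCA, was at 7.06 CPM in δ-cells. With age, the log2 fold change over 7 young and 4 old monkeys was -0.57 (SE 0.51, adjusted p = 1 by edgeR), and 0.23 without young male 3.

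CARTPT was strongly positive in 13 δ-cells of 6 monkeys. In δ-cells its level was highest in young female 3 with 387 CPM, followed by old female 2 with 122 CPM, and 3 of the 11 monkeys, young females 1 and 4 and old female 1, had 0 CPM. Without young female 3 the mean over monkeys went from 68.8 to 37 CPM. Outside δ-cells 5 α-cells were strongly positive, and the mean over monkeys was 0.553 CPM in α-cells and 0.131 CPM in β-cells. With age it had a log2 fold change of -1.02 (SE 1.17, adjusted p = 1 by edgeR) and turned to 2.12 without young female 3.

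MLN was found in few cells. It was strongly positive in 4 cells, all δ-cells, 3 of young female 3 at 182, 230.1 and 1044 CPM and 1 of old male 4 at 5159 CPM (247 UMIs). The 3 cells of young female 3 were strongly positive for CARTPT too, at 1657, 973 and 181 CPM, while that of old male 4 had no CARTPT UMI, and all 4 had 0 CPM of CALCB. They had between 63668 and 118365 CPM of SST. No UMI of MLN was found in 74 PP-cells, which allows a share of up to 4.05% of cells with a UMI (3 counts, counting error only). In α-cells there were 22 UMIs in 19 of 4503 cells. CARTPT and CALCB occurred together in 7 of the 13 δ-cells strongly positive for CARTPT (53.8%), close to the 55.6% of other δ-cells that were strongly positive for CALCB.

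**Figure D3:**
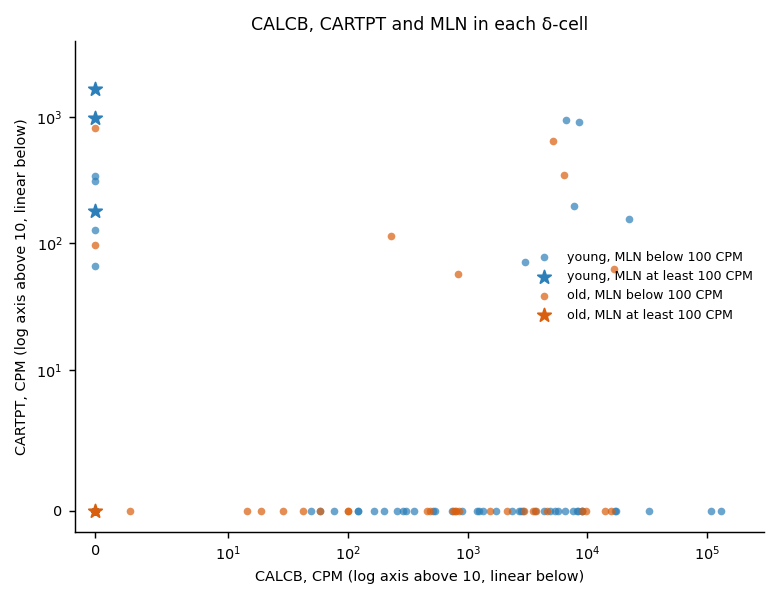
CPM of CALCB (horizontal axis) and CARTPT (vertical axis), both logarithmic above 10, in each δ-cell, with stars for the 4 cells at or above 100 CPM of MLN (blue young, orange old). The stars stand at 0 CPM of CALCB, and the 3 young ones at 181 CPM of CARTPT or more.

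CALCB was also found in a small set of β-cells. Of 1219 β-cells 85 (6.97%) were strongly positive, in 14 monkeys, with a median of 319 and a highest value of 11955 CPM. These cells carried IAPP much as the other β-cells did, which had a median of 2268 CPM. The median IAPP of the 85 cells was 2628 CPM, and their median of the summed δ-cell markers HHEX, LEPR and RBP4 was 0 CPM against 5925 CPM in δ-cells. Their highest SST value was 5317 CPM, against a median of 93135 CPM in δ-cells, but the typing itself keeps SST below INS in β-cells. Of the 85, 19 had INS at 4 times the second hormone or more. Their median SST was 249 CPM and that of the other β-cells 194 CPM, and it was higher in 9 of 11 monkeys. Young monkeys had 2.89, 3.71, 4.94, 7.53, 16.9, 48.2, 51.2 and 74.9 CPM in β-cells. Old monkeys had 4.8, 28, 31.7, 83.4, 149, 179, 433 and 473 CPM. Of the old monkeys 7 of 8 lay above the young median, and the groups overlapped. Strongly positive were 62 of 683 β-cells in 8 of 8 old and 23 of 536 in 6 of 8 young monkeys. The log2 fold change was 2.65 (SE 0.75, unadjusted p = 0.00173, adjusted p = 0.428 by edgeR), so the difference did not pass the threshold. The adjusted p ranged from 0.113 to 1 over the alternatives, and the fold change was 1.85 without the cells that held most of a library's CALCB and 1.41 among β-cells with INS at 4 times the second hormone or more. Without old male 3 it was 1.96.

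Libraries with a single very high cell had more other cells with a UMI of the same gene, for CALCB, PYY and NPY. A high cell was defined as a cell with over 50% of its library's UMIs of a member and at least 100 of them. There were 54 pairs of a member and a high cell, in 42 of 64 libraries, and 28 of them were for CALCB (18 δ-cells and 10 β-cells), 11 for PYY, 6 for NPY and 4 for IAPP. High CALCB cells held 53.7% of all CALCB UMIs. In library 4 of young male 3, 1 δ-cell held 2590 UMIs of CALCB and 86 of the 90 other cells (95.6%) had at least 1 UMI. In library 4 of old male 4, 1 δ-cell with 1550 UMIs went with 68 of 93 other cells (73.1%). Among the 14 libraries whose highest cell held at least 500 UMIs of CALCB, the share of other cells with a UMI had a median of 65.6%, and among the 7 with under 10 UMIs a median of 0%. Within the 15 monkeys that had libraries with and without a high CALCB cell, the share of other cells with a UMI was higher in those with one in 14, on average 46.2% against 14.5%. For PYY it was higher in 6 of 8 monkeys (54% against 36.3%) and for NPY in 4 of 5 (21.1% against 12.4%).

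The pattern was not seen for each member. In library 1 of old female 3, 1 α-cell held 906 NPY UMIs, 94.6% of the library's, and 35 of 92 other cells (38%) had a UMI, with at most 3 in a cell. In library 3 of old female 1, however, 1 α-cell held 111 UMIs of GUCA2A, and 3 of 78 other cells (3.85%) had a UMI. For GUCA2A the share was higher in libraries with a high cell in 0 of 2 monkeys, and for IAPP in 1 of 3 (32.6% against 52.2%). Neither comparison can decide on carry-over. By its definition an IAPP high cell needs a library whose other cells hold little IAPP, and the high cells of GUCA2A held only 111 UMIs each. The other high cell of GUCA2A and the single ones of GUCA2B and RETNLB were in library 4 of old female 2, the library that stood apart. Over the 54 pairs, the mean of the other cells, without the highest 10% of them, was between 0% and 0.388% of the UMIs of the high cell, with a median of 0.113%. Whether these UMIs were carried over from the high cell was not tested. Of the 91 α-cells strongly positive for CALCB, 62 were of young male 3. That monkey's α-cell means were 135, 34.7, 19 and 143 CPM in its 4 libraries, and in libraries 1 and 4 a δ-cell held 1759 and 2590 UMIs of CALCB, 47.8% and 60.5% of the library's. Carry-over at the rate of 0.113% was subtracted from every gene, and CPM were then taken over the reduced totals, so a level can also rise. The level of IAPP in α-cells went from 54.9 to 17.3 CPM. CALCB went from 4497 to 5205 CPM in δ-cells and from 99.5 to 103 CPM in β-cells, and RETNLB from 59.9 to 62.5 CPM in α-cells. Without the high cells CALCB in β-cells was at 41.8 CPM in place of 99.5 CPM.

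**Figure D4:**
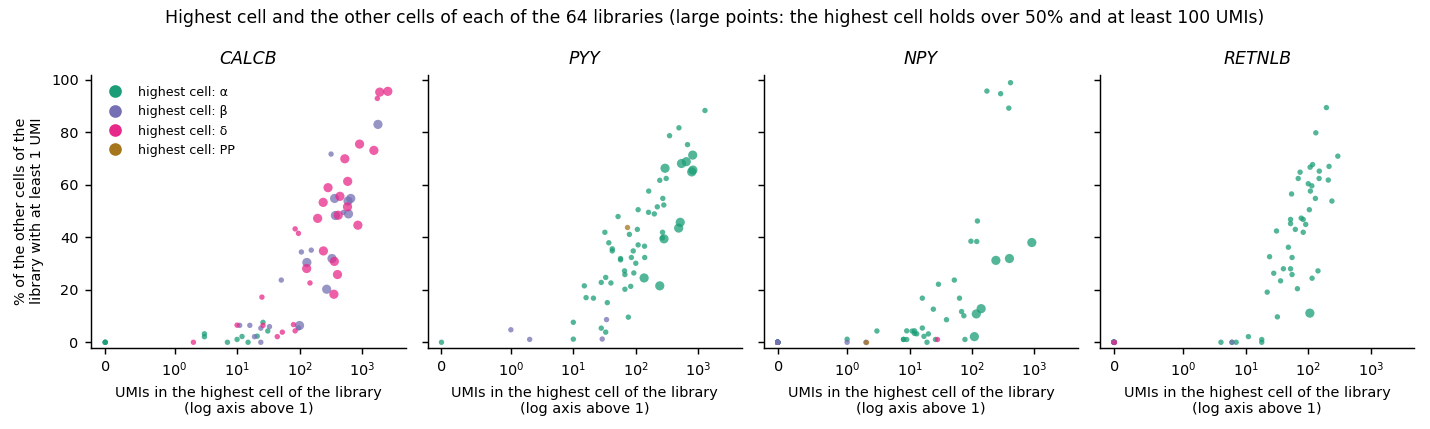
For each of the 64 libraries, the UMIs of CALCB, PYY, NPY and RETNLB in the highest cell (horizontal axis, logarithmic above 1) against the percent of the other cells with at least 1 UMI (vertical axis), coloured by the type of the highest cell, with large points for libraries with a high cell. For CALCB the percent climbs with the highest cell to 95.6%, and for NPY the 4 libraries of old male 4 stand at 89.2 to 98.9%.

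To ask whether age altered the peptide genes, the UMIs of all cells of 1 type were added up for every monkey and all genes were tested. In such sums fewer positive cells and less RNA per cell cannot be told apart. No member was called, that is, none had an adjusted p under 0.05 with edgeR, in any of the 4 types. In α-cells 8 of the 10 members passed the filter on low counts and 0 were called, where 0 of 12916 genes (0%) were called, 886 genes had an unadjusted p under 0.05 and DESeq2 called 23. In β-cells 5 members were tested and 0 called, against 5 of 10628 genes (0.047%). In δ-cells 3 members were tested in 11 monkeys and 0 called, against 0 of 6484 genes (0%), with 209 under an unadjusted p of 0.05 and 3 called by DESeq2. In PP-cells 4 members were tested in 6 monkeys (2 young, 4 old) and 0 called, against 0 of 6568 genes (0%), with 394 under an unadjusted p of 0.05 and 2 called by DESeq2. The median log2 fold change of the members tested was 0.32 in α-cells, 0.3 in β-cells, -0.57 in δ-cells and -0.029 in PP-cells, against -0.0023, -0.0057, 0.025 and -0.047 over all genes tested.

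PYY in PP-cells had the smallest unadjusted p of the 20 tests of age. The 2 young males had 2.33 and 19.8 CPM, and the 4 old monkeys 50.3, 66.4, 167 and 236 CPM. The log2 fold change was 4.05 (SE 1.16, unadjusted p = 0.00111, adjusted p = 0.585 by edgeR), and it was 1.98 without old male 2. Each of these 6 values rests on 5 to 33 PP-cells. The highest of the 5 cells of old male 2 held 1098 CPM, and the highest of the 8 of old female 1 held 844 CPM. Of the 33 cells of old female 2, 4 came from library 4. Without that library the fold change was again 4.05 and the adjusted p 0.347 by edgeR. IAPP in δ-cells had a log2 fold change of 1.61 (SE 0.78, unadjusted p = 0.0484, adjusted p = 1 by edgeR), with 324 CPM in old female 1 and 4.33 to 144 CPM in the other monkeys, and -0.63 without old female 1. A single cell held 772 of the 787 IAPP UMIs in the δ-cells of old female 1, and 3 of the 4 old monkeys lay below the young median. The intervals of the α-cell genes were wide for NPY (-0.41 to 6.45), RETNLB (-0.43 to 4.05) and NPPA (-1.26 to 2.44) and narrower for GUCA2B (-0.77 to 1.08), IAPP (-0.60 to 1.22) and PYY (-0.81 to 1.28). With carry-over subtracted, however, IAPP in α-cells had a log2 fold change of -1.05, outside its interval.

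**Figure D5:**
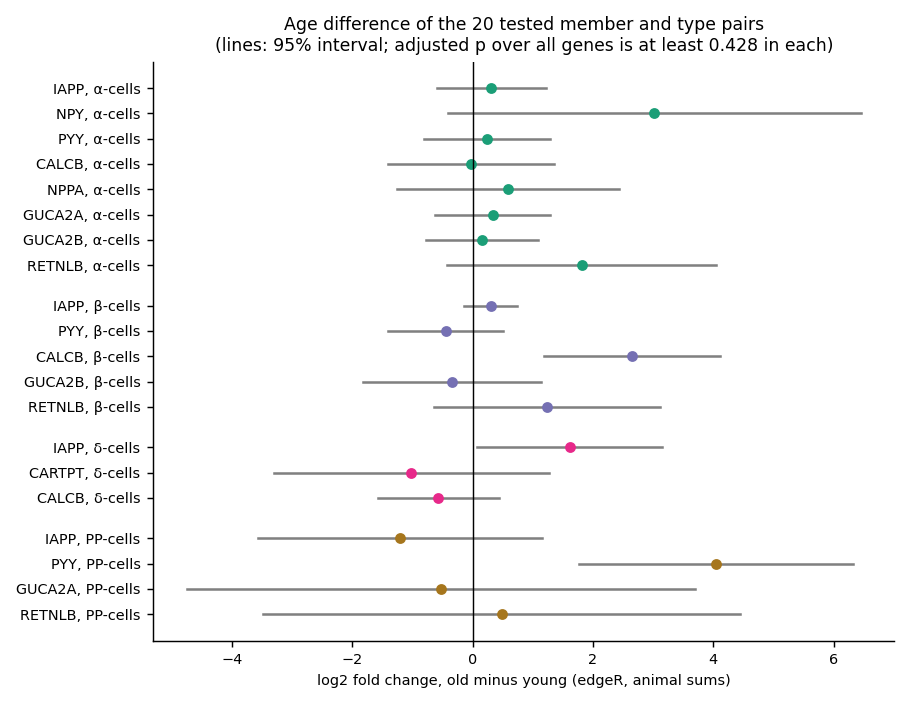
Log2 fold change of old against young monkeys (horizontal axis) for the 20 pairs of member and cell type that passed the filter on low counts, as points with lines for the 95% interval, coloured by type. The lines of CALCB in β-cells, PYY in PP-cells and IAPP in δ-cells lie above 0, and the adjusted p over all genes is at least 0.428 in each pair. The lines are normal intervals set by the SE, which are too narrow for few monkeys.

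Sex was compared in α- and β-cells. No member was called in α-cells, where 0 of 12916 genes (0%) were called by edgeR, 753 had an unadjusted p under 0.05 and DESeq2 called 26, GUCA2A among them. Of the 8 members tested, 4 had an unadjusted p under 0.05, namely GUCA2A and GUCA2B, lower in males, and NPPA and CALCB, higher in males. CALCB in α-cells had 20.3 CPM in males and 7.3 CPM in females (log2 fold change 1.52, SE 0.71, adjusted p = 0.853 by edgeR), and 0.19 without young male 3. In β-cells 0 of 5 members were called, against 0 of 10628 genes (0%), with 424 under an unadjusted p of 0.05 and 11 called by DESeq2. Whether age acted differently in males and females was tested as an interaction. In α-cells 1 of 12916 genes (0.00774%) was called and it was no member, 698 genes (5.4%) and 2 of the 8 members had an unadjusted p under 0.05, and DESeq2 called 1. In β-cells it was 0 of 10628 (0%), with 434 under an unadjusted p of 0.05 and 1 called by DESeq2. GUCA2A had an interaction of -2.58 on the log2 scale (SE 0.69, adjusted p = 0.908 by edgeR). Old females had 43.5, 15.2, 75.1 and 31.9 CPM, old males 4.6, 3, 6.81 and 3.83 CPM, young females 7.4, 12.6, 7.91 and 32.8 CPM and young males 12.2, 8.3, 2.15 and 15.8 CPM, and all 4 old males lay below all 4 old females.

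Receptors of these peptides were followed from a fixed list of 16 genes, 15 of which were in the files. Few reached the filter, 7 in α-cells, 4 in β-cells, 3 in δ-cells and 4 in PP-cells, and 0 were called for age, or in α- and β-cells for sex or the interaction. At an unadjusted p under 0.05 there was 1 receptor for age in α-cells (GPR160), 1 for age in PP-cells (RAMP1) and 2 for the interaction in α-cells. Over all genes tested the shares under that p were 6.86%, 6% and 5.4%. RAMP2, a partner of the calcitonin receptor family, was the highest in α-cells with 205 ± 119.7 CPM (SD, n = 16), while the receptors it pairs with, CALCR and CALCRL, were at 0.0117 and 0.0372 CPM. GUCY2C, the receptor of guanylin and uroguanylin, was at 16.8 ± 12.5 CPM in α-cells, 7.73 ± 8.39 CPM in β-cells (n = 16 each) and 30 ± 17 CPM in PP-cells (n = 6). NPY1R, a Y receptor, was at 74.6 ± 137 CPM in δ-cells (n = 11) and 14.4 ± 6.05 CPM in α-cells, and NPR1, the receptor of the atrial natriuretic peptide, at 19 ± 22.4 CPM in δ-cells and 1.23 ± 1.07 CPM in α-cells. These levels were picked from the list after they were seen.

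Of 48 other peptide precursors listed, 40 were in the files, 11 passed the filter in α-cells, 5 in β-cells, 2 in δ-cells and 4 in PP-cells, and again 0 were called in any comparison. At an unadjusted p under 0.05 there were 2 for age in δ-cells and 1 for sex in α-cells (ADM), where 3.22% and 5.83% of all genes were under that p. The highest in α-cells were the endothelin EDN3 with 318 ± 210.3 CPM and ghrelin (GHRL) with 229 ± 453 CPM (SD, n = 16), followed by NPW with 43.3 ± 33 CPM, and these too were picked by their level. Ghrelin did not enter the typing, so cells that mainly make it were placed in another type. The summed ε-cell markers GHRL and ACSL1 reached 10000 CPM in 7 cells typed as α-cells, and their monkey means ran from 2.46 to 1438 CPM. How much of the ghrelin level rests on such cells was not tested. VIP, ADM2, CRH, NPB and PMCH were listed at 0 in each type.

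The genes most like each member were taken by Pearson's r of log2(CPM/10 + 1) over 32 sums, of α- and of β-cells of each monkey, among 8107 genes with a mean of at least 10 CPM. All sums of a monkey share its libraries. Since both types were pooled, r also reflects how far each gene differs between α- and β-cells, and is no measure of variation within a type. IAPP went with GAD2, SLC2A2 and HADH (r = 0.99 each), genes of glutamate decarboxylation, glucose uptake and fatty acid oxidation. GUCA2A went with GUCA2B (0.89), SLC44A4 (0.82) and ENSMFAG00000044321 (0.79), and GUCA2B with GUCA2A (0.89), ENSMFAG00000044321 (0.89) and CDS1 (0.88). PYY went with PLD3 (0.84), ATOX1 (0.83) and NPNT (0.82), NPPA with SLC35F1 (0.73), ZNF579 (0.72) and PRRC2C (0.69), and RETNLB with ENSMFAG00000031304 (0.72), DPYSL2 (0.72) and CRYBA2 (0.71). CALCB went with RNF181 (0.74), ENSMFAG00000037325 (0.71) and TMEM255B (0.69), and NPY with ID1 (0.69), BMP5 (0.63) and CCT7 (0.61). CARTPT (FGB 0.62, CD320 0.61, ENSMFAG00000040858 0.54) and MLN (BLVRA 0.69, TSC1 0.68, ERICH1 0.65) were near 0 in both types, so their values rest on few UMIs. Over the 16 sums of α-cells alone the genes partly changed. IAPP then went with GAD2 (0.92), INS (0.87) and HADH (0.86), and GUCA2A with APOD (0.83), HPN (0.83) and GUCA2B (0.81). For PYY all were others, ENSMFAG00000030546 (0.84), NCBP2 (0.82) and MCTS1 (0.82).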

How the data were processed

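Islet cells of 8 young and 8 old monkeys were picked by mouth pipette and made into 64 libraries (modified STRT in the study's methods, modified SMART-seq2 per the labels). The authors aligned reads to Macaca_fascicularis_5.0, and counted UMIs of reads with a unique position by HTSeq (TopHat2 2.0.12 and CASAVA 1.8 per the submitters' processing notes), and deposited raw UMI counts per gene and cell, without normalization, together with 95 spike-in RNAs, which were left out here (5.41% of UMIs). The 96 cell barcodes are the same in every library. Whether strand was used in counting is not given in the sources used here, and reads that matched close relatives equally were not counted.

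Levels are the mean over the cells of a monkey of UMIs per 1000000 UMIs of macaque genes, for monkeys with at least 5 cells of the type. Sums of counts per monkey were tested with edgeR 4.0.16 (TMM, filterByExpr, quasi-likelihood test, age and sex in the model, Benjamini-Hochberg adjustment, threshold 0.05) in R 4.3.3, and with DESeq2 1.42.0 as the other tool. The study's own t-test took cells as replicates and was replaced. Python 3.11.15 (numpy 2.4.6, pandas 2.3.3, scipy 1.17.1) was used for the rest. Fits were tested on simulated data. P-values measure the spread between monkeys, and intervals of shares cover counting error only. Intervals of fold changes are normal ones set by the SE, and are narrower than the quasi-likelihood test implies. The interaction of NPY in α-cells, for example, had an interval from 0.28 to 10.20 at an unadjusted p of 0.0534 by edgeR. Doublets were not called; cells with a hormone at 4 times the second or more served as an alternative. Of the cells, 1272 (21.5%) had a smaller margin, and these were spread unevenly over the types. They were 299 of 4503 α-cells, 835 of 1219 β-cells, 72 of 112 δ-cells and 66 of 74 PP-cells.

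The members and gene lists were chosen with earlier results of these data known. Named are the 10 members, the 3 genes most like each, and listed genes that passed a test, of which there were 0. Listed genes named by their level or unadjusted p were chosen after their values were seen. Alternatives were RLE size factors, no filter, no sex term, the replicate number as a block, thinning to 10000 UMIs, no high cells, carry-over subtracted, over 2000 genes and 20000 UMIs, no hormone genes, each monkey left out and, chosen after seeing the data, library 4 of old female 2 left out. Groups come from the submitters' list of individuals. Monkeys were collected on sequential days, so day and monkey cannot be told apart. The study's further filter on mapping rate was not applied, as the counts do not hold that rate.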

Additional observations from a re-analysis of the deposited data

Results flagged for a closer look

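A monkey was singled out where its gap to the nearest monkey of its age group exceeded Dixon's 95% limit. Of 37 groups checked, 12 gave such a monkey, where chance gives about 1 in 20 if values are normally distributed, which these skewed levels with many zeros are not. In α-cells these were NPY in young female 4 (31.7 CPM, next 11.6) and old male 4 (540.1 CPM, next 86.8), CALCB in young male 3 (82.3 CPM, next 10.2), NPPA in old male 3 (98.8 CPM, next 22.5) and GUCA2A in young female 4 (32.8 CPM, next 15.8). In δ-cells they were NPY in young male 2 (71.6 CPM) and old male 4 (134 CPM), CARTPT in young female 3 (387 CPM, next 65.1), CALCB in young male 3 (23489 CPM, next 3586) and MLN in young female 3 (132 CPM) and old male 4 (520.5 CPM, the other old monkeys being at 0). In PP-cells it was NPY in old male 4 (271 CPM, next 11). The δ-cell value of young male 2 comes from 1 of its 12 δ-cells, which held 27 NPY UMIs. The values of old male 4 in δ- and PP-cells rest on 10 and 6 cells, of a monkey in whose libraries at least 89.2% of the cells other than the highest had an NPY UMI, and the part of carry-over in them was not tested.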

How the results depend on the processing

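The number of genes called changed with the tool, the filter and the monkeys included. DESeq2 called 23 genes for age in α-cells, 39 in β-cells, 3 in δ-cells and 2 in PP-cells, 26 and 11 for sex in α- and β-cells, and 1 for the interaction in β-cells. Without a filter on low counts edgeR called 21, 3 and 9 for age in β-, δ- and PP-cells, 23 for sex and 1 for the interaction in β-cells. For age in β-cells it called 3 after thinning and 1 at the wider hormone margin, in δ-cells 1 without high cells, and in PP-cells 1 without the sex term and 3 without library 4 of old female 2. Leaving out 1 monkey gave 2 to 8 calls for age in β-cells, 0 to 10 in PP-cells, 0 in α- and δ-cells, 0 to 1 and 0 to 2 for sex in α- and β-cells, and 1 and 0 to 1 for the interaction. No member crossed the threshold apart from GUCA2A for sex with DESeq2 (-1.93). In the labels the replicate numbers only name monkeys. Of 24 same-numbered pairs, 5 in α- and 3 in β-cells correlated above 0.1, and 8 and 7 of 16 monkeys correlated best with their own number. How many would do so by chance was not worked out. The median r of same-numbered pairs was 0.01 in α- and -0.02 in β-cells, against -0.01 and 0.01 for other numbers. With the replicate block edgeR called 0, 5 and 0 genes for age in α-, β- and δ-cells, CALCB in β-cells had a log2 fold change of 1.96, and 3 member values turned, CALCB (0.22) and GUCA2B (-0.05) in α-cells and CARTPT in δ-cells (2.01).

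Other age values also changed sign, among them those of IAPP, which were 1.61 in δ-cells and 0.31 in α-cells as reported. CALCB in α-cells was 0.01 with the stricter cell filter and 0.06 without library 4 of old female 2, GUCA2B -0.01 after thinning, IAPP -1.05 with carry-over subtracted, NPPA -0.14 without the sex term, PYY -0.18 without high cells, IAPP in δ-cells -0.08 after thinning and RETNLB in PP-cells -0.37 with carry-over subtracted. The cause was not tested. Leaving out 1 monkey turned CALCB in α-cells (-0.29 to 1.31) and δ-cells (-0.96 to 0.23), CARTPT in δ-cells (-1.98 to 2.12), GUCA2A in PP-cells (-6.63 to 0.39), GUCA2B in α-cells (-0.07 to 0.36), IAPP in δ-cells (-0.63 to 2.21), NPPA in α-cells (-0.19 to 1.00) and RETNLB in PP-cells (-0.39 to 2.62). Levels moved by more than the SD over monkeys only as medians over cells, for PYY (2.77 CPM) and GUCA2B (1.18 CPM) in α-cells. Thinned to 10000 UMIs, the percent of cells with a UMI was 98.6 for IAPP in β-cells, 55.4 for CALCB in δ-cells, and in α-cells 8.67 for NPY, 16.4 for PYY, 9.25 for NPPA, 7.95 for GUCA2A, 13.7 for GUCA2B and 17.9 for RETNLB. At over 20% of a library there were 147 high cells. The hormone margin left too few monkeys in δ- and PP-cells and the block could not be fitted in PP-cells. The lowest counts of δ- and PP-cells limit the age tests there.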
